A study of Homo sapiens with 8 samples.

Results

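The genes of prostaglandin synthesis, signalling and breakdown were followed in U87 cells, a line derived from a grade IV glioma, after silencing of RND3 (also called RhoE). They comprised 10 genes chosen by name (PLA2G4A, PTGS1, PTGS2, PTGES, PTGES2, PTGES3, PTGIS, PTGER2, PTGER4 and HPGD) of the 19483 genes that could be named on the array. All 10 were on the array, with 11 probes between them. Cells in all groups underwent reverse transfection with siRNA in Lipofectamine RNAiMAX. The siControl cells received a non-silencing oligo and the siRND3 cells an oligo against RND3. RNA from 3 siControl and 3 siRND3 samples collected at 24 h, and from 1 siControl and 1 siRND3 sample collected at 48 h, was labelled with Cy3 and hybridised to 1-colour Agilent whole genome arrays. The methods name a pair of custom oligos against RND3, and the labels do not say which of them a sample received. The knock-down is transient. Whether the replicates were separate cultures is not given in the labels, so the p-values measure only the spread between these samples, and that spread may be technical.

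Prostaglandins are lipid signals made from arachidonic acid. A cytosolic phospholipase frees arachidonic acid from membranes, a cyclooxygenase turns it into the unstable intermediate PGH2, and a terminal synthase makes the final product, which is PGE2 for the PGE synthases and prostacyclin for PTGIS. PGE2 acts on cells through receptors of the EP family. EP2 and EP4 (encoded by PTGER2 and PTGER4) raise cyclic AMP, and HPGD starts the breakdown of PGE2. Cyclooxygenase 2 (PTGS2) is the inducible enzyme, known in glioma and other tumours as a source of PGE2, whereas cyclooxygenase 1 (PTGS1) is regarded as the constitutive one.

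Levels are log2 intensities after quantile normalisation of the 8 arrays, and a difference is siRND3 minus siControl on that scale unless stated. Between 28973 and 30001 of 42405 probes per array were well above background, meaning that at least 50% of a probe's spots were so marked by the scanner software. Tests at 24 h took in the probes that met this mark on every array of siControl or of siRND3 cells, 3 arrays each. A change was called at a limma adjusted p under 0.05, where Benjamini-Hochberg adjustment took in all 28759 tested probes. RND3 itself stood at 11.90 ± 0.01 (SD, n = 3) in siControl and 10.24 ± 0.16 (SD, n = 3) in siRND3 cells at 24 h, a level 31.7% of the control, and differed by -1.65 between the single arrays at 48 h. All 8 arrays lay on 1 slide and had 1 scan date. Row 1 of the slide held the siRND3 arrays and row 2 the siControl arrays, and effects of row and of treatment cannot be told apart. Of 7 markers of glioma or neural lineage, VIM, NES and CD44 were well above background on all 8 arrays, and GFAP and SOX2 on none. The 5 measured markers of microglia or macrophages and all 5 of endothelium were also well above background on every array, each through at least 1 probe. Some other probes of PECAM1 and PTPRC missed the mark on some or all arrays. Among them, PECAM1 probe A_23_P252471 missed it on the siRND3 array at 48 h.

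The promoters of PTGS2, PTGER2 and PTGER4 are printed here because these were the genes called lower with RND3 knock-down, and that of PLA2G4A because it is the neighbour of PTGS2 on chromosome 1. Each is the 250 bases before the gene's start in RefSeq (GRCh38.p14), 5′ to 3′ on the gene's strand, and capitals mark matches to the motifs described next.
PTGS2, chr1:186680424-186680673, minus strand: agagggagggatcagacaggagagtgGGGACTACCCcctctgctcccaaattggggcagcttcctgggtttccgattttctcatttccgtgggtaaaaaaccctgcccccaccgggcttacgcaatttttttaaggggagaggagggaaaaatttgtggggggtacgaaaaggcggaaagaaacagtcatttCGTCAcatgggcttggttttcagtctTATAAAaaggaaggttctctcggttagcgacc
PTGER2, chr14:52314062-52314311, plus strand: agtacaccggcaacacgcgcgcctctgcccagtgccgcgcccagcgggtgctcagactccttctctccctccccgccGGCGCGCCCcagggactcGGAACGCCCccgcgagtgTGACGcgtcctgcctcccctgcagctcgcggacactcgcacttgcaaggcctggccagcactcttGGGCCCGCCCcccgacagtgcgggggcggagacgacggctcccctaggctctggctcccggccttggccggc
PTGER4, chr5:40679665-40679914, plus strand: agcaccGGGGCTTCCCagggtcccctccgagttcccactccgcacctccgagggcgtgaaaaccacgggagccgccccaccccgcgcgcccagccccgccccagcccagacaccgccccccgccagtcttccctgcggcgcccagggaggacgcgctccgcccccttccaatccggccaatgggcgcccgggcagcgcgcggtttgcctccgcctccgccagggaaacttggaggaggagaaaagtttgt
PLA2G4A, chr1:186828699-186828948, plus strand: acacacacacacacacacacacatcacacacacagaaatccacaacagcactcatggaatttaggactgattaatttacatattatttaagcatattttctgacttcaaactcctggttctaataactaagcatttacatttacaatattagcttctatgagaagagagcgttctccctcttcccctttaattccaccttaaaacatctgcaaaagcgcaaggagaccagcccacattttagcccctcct

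Of the 10 genes, 9 had a promoter entry, with PTGIS the exception. The motifs searched on both strands were TATAAA (the TATA box), TGACG (the core of the cyclic AMP response element), CACGTG (an E box), TGANTCA (AP-1) and GGGNNNNCC (a loose NF-kB pattern). Of 35116 promoters of this length, TATAAA was held by 10.7%, TGACG by 21.2%, CACGTG by 6.34%, TGANTCA by 6.57% and GGGNNNNCC by 48.5%. The PTGS2 promoter held TATAAA from -32 to -27 and TGACG, on the opposite strand, from -58 to -54, with positions counted back from the start. It also held overlapping matches to GGGNNNNCC on both strands between -224 and -215. The PTGER2 promoter held TGACG from -137 to -133 and 4 matches to GGGNNNNCC. The PTGER4 promoter held 3 overlapping matches to GGGNNNNCC between -244 and -235. The PLA2G4A promoter held none of the 5 patterns in this window. A match is a description of these letters and not a measured binding site.

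At 24 h, 7 of the 10 genes could be tested, each through 1 probe. PTGS2, PTGER2 and PTGER4 were lower with RND3 knock-down, by 0.70, 0.34 and 0.33 on the log2 scale, and none of the 7 was higher. PLA2G4A, PTGES, PTGES2 and PTGES3 did not pass the threshold. PTGS1, PTGIS and HPGD were not well above background on any array at 24 h. Over all 14805 genes tested, 9.26% were called lower and 7.16% higher in this comparison. The median difference of the 7 genes was -0.19, against 0.05 over all probes tested. The 10 genes were chosen with earlier results of these arrays known, so these counts are a description of the pathway. In bulk RNA of this 1 cell line, fewer cells that express a gene and less of its RNA per cell cannot be told apart.

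**Figure D1:**
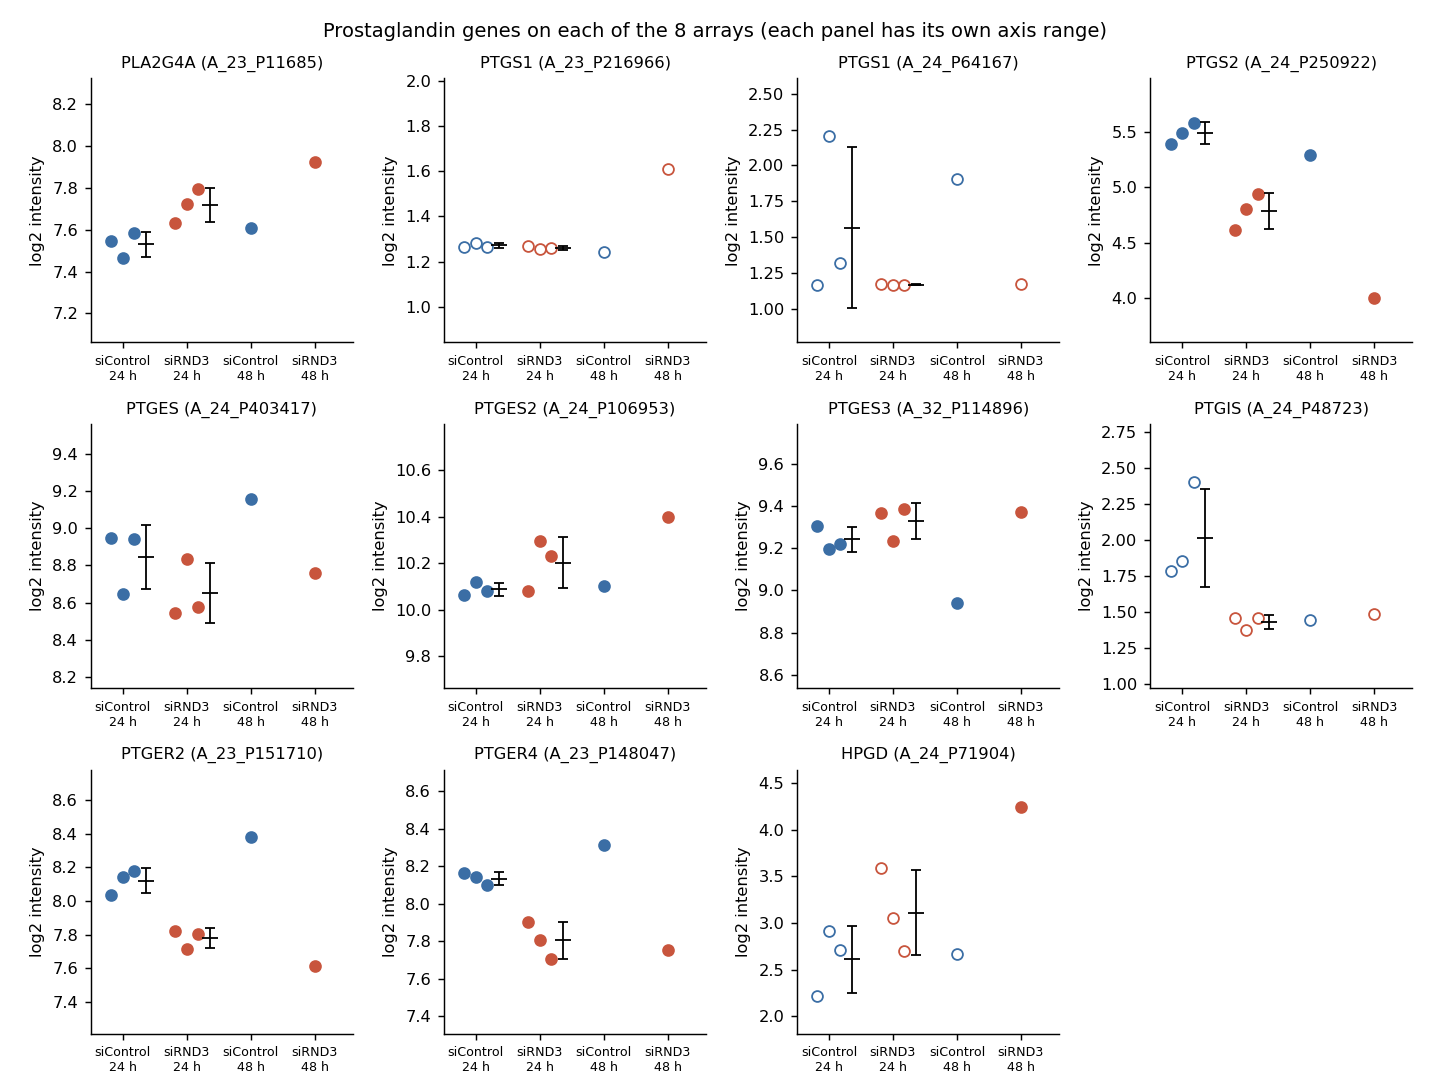
Level of each probe of the 10 genes on each array (y axis, log2 intensity, with its own range in each panel) for siControl and siRND3 cells at 24 h and 48 h (x axis). Filled points were well above background on that array and open points were not; bars are mean ± SD of the 3 arrays at 24 h. The siRND3 arrays at 24 h lie below all siControl arrays at 24 h for PTGS2, PTGER2 and PTGER4 and above them for PLA2G4A. They also lie below for PTGIS, where every point missed the background mark and no order is read.

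At the first step of the pathway, PLA2G4A (probe A_23_P11685), the cytosolic phospholipase that frees arachidonic acid, stood at 7.54, 7.46 and 7.58 in siControl and at 7.63, 7.72 and 7.79 in siRND3 cells at 24 h. All siRND3 values lay above all siControl values. The difference of 0.19 (SE 0.08) had a 95% interval of -0.002 to 0.38 and was not past the threshold (limma adjusted p = 0.182). At 48 h the single arrays read 7.61 in siControl and 7.92 in siRND3 cells, the highest of the 8 values. All siRND3 arrays lay above all siControl arrays for 20.3% of the 28733 probes measured on every array at 24 h, and all below for 14.0%. Among the 7 genes, PLA2G4A was the 1 gene of the first kind, and PTGS2, PTGER2 and PTGER4 were the 3 of the second kind. An exact permutation test of 3 against 3 arrays cannot give a two-sided p under 0.1, which it gave for each of these 4 genes.

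PTGS2 (probe A_24_P250922), the inducible cyclooxygenase, gave the largest difference of the 7 under the reported processing, an order that did not hold after normexp background correction. Its level was 5.39, 5.49 and 5.58 in siControl and 4.61, 4.80 and 4.94 in siRND3 cells at 24 h. The groups did not overlap, and the highest siRND3 array lay 0.45 below the lowest siControl array. The difference was -0.70 (SE 0.11, 95% interval -0.96 to -0.45, limma adjusted p = 0.010), which puts siRND3 cells at 61.4% of the control level. At 48 h the single siControl array read 5.29, close to the siControl arrays at 24 h. The siRND3 array at 48 h read 4.0 and was the lowest of the 8. The difference at 48 h was therefore -1.29, or 40.9% of the control level, with no replicate check. It was the only one of the 7 past 1 on the log2 scale, a size reached downward by 8.04% and upward by 5.36% of all genes tested.

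PTGS2 was measured close to background. Its probe was printed at 10 spots per array, of which 8 to 10 were kept after outliers were left out. The mean spot median was 74.1 to 83.1 in siControl and 58.1 to 60.7 in siRND3 cells at 24 h, over a local background of 31.2 to 36.1. On the siRND3 array at 48 h it was 50.1 over a background of 26.8, and 6 of 10 spots were marked as well above background, whereas every kept spot on the other arrays was. The spots of that array also spread most, from 3.37 to 4.64 with an SD of 0.40, against SDs of 0.06 to 0.23 on the other 7 arrays. The size of the PTGS2 difference at 24 h depended on how background was treated. It was -0.26 after normexp correction with an offset of 50 and -0.37 in the authors' own log2 values, which rank the probes of an array as the uncorrected spot medians do. At 48 h these settings gave -0.38 and -0.62, neither past 1. Both settings leave an added amount under the signal, the offset or the background. By design this makes log2 differences of dim probes smaller. The mean processed intensity of PTGS2 at 24 h was 42.8 to 50.7 in siControl and 23.6 to 29.0 in siRND3 cells. These settings therefore cannot decide the size of its difference or its rank among the 7 genes. With normexp PTGS2 was level with PTGER2 (-0.26) and PTGER4 (-0.25) at 24 h, and at 48 h PTGER2 differed by more than PTGS2 under both settings (-0.59 and -0.68). The call at 24 h held under all 16 alternative settings, with limma or SAM adjusted p between 0.00350 and 0.0473.

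**Figure D2:**
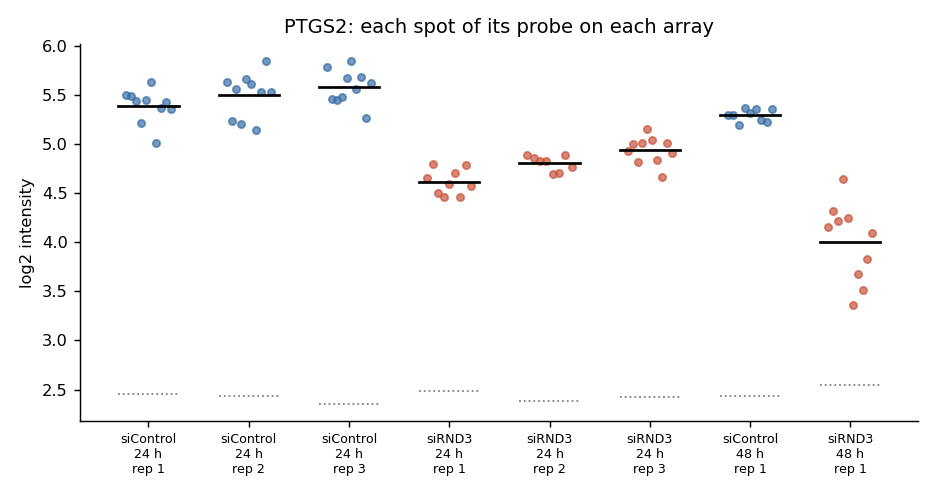
Each point is 1 spot of the PTGS2 probe (y axis, log2 intensity) on each of the 8 arrays (x axis). Black lines are the mean of an array's spots and dotted grey lines the lowest level among probes well above background on that array; the siRND3 array at 48 h has the lowest mean (4.0) and the widest spread of spots (SD 0.40).

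PTGS1, the other cyclooxygenase, was not well above background on any of the 8 arrays through either of its probes. The first (A_23_P216966) read 1.24 to 1.61 and the second (A_24_P64167) 1.17 to 2.21. The lowest level of a probe well above background was 2.36 to 2.54, depending on the array, so no order is read from these values. Of both cyclooxygenase genes, PTGS2 alone was measured above background.

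The PGE synthases, which convert PGH2 to PGE2, did not pass the threshold at 24 h. PTGES (probe A_24_P403417), the inducible microsomal form, stood at 8.95, 8.65 and 8.94 in siControl and at 8.54, 8.83 and 8.58 in siRND3 cells. The groups overlapped through siControl replicate 2 and siRND3 replicate 2, and the difference was -0.19 (95% interval -0.49 to 0.10, limma adjusted p = 0.363). At 48 h it read 9.16 in siControl and 8.76 in siRND3 cells. PTGES2 (probe A_24_P106953), a second membrane-associated form, stood at 10.06, 10.12 and 10.08 in siControl and at 10.08, 10.30 and 10.23 in siRND3 cells, a difference of 0.11 (95% interval -0.08 to 0.31, adjusted p = 0.415 by limma). Its single arrays at 48 h read 10.10 and 10.40. PTGES3 (probe A_32_P114896), the cytosolic form and also the Hsp90 co-chaperone p23, stood at 9.31, 9.20 and 9.22 in siControl and at 9.37, 9.23 and 9.39 in siRND3 cells, a difference of 0.09 (95% interval -0.10 to 0.28, adjusted p = 0.522 by limma). At 48 h it read 8.94 in siControl and 9.37 in siRND3 cells. PTGIS (probe A_24_P48723), prostacyclin synthase, also missed the background mark on each array, at 1.38 to 2.40.

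Both measured EP receptor genes that raise cyclic AMP were lower in siRND3 cells at 24 h. PTGER2 (probe A_23_P151710) stood at 8.04, 8.15 and 8.18 in siControl and at 7.82, 7.71 and 7.80 in siRND3 cells at 24 h. The groups were separated by 0.21, and the difference was -0.34 (SE 0.08, 95% interval -0.52 to -0.16, limma adjusted p = 0.0379). At 48 h the single arrays read 8.38 and 7.61, the highest and the lowest of the 8, a difference of -0.77. PTGER4 (probe A_23_P148047) stood at 8.17, 8.14 and 8.10 in siControl and at 7.90, 7.81 and 7.71 in siRND3 cells at 24 h. These groups were separated by 0.20, and the difference was -0.33 (SE 0.08, 95% interval -0.52 to -0.14, limma adjusted p = 0.0451). At 48 h the arrays read 8.31 and 7.75, a difference of -0.56.

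The receptor calls were close to the threshold. Each was lost in 8 of 16 alternative settings. PTGER2 lost its call when any 1 of the 6 arrays at 24 h was left out (limma adjusted p between 0.0619 and 0.145). PTGER4 lost it without any 1 siControl array, without siRND3 replicate 2 or without siRND3 replicate 3 (0.0940 to 0.142). The difference kept its sign in all 16 settings, between -0.45 and -0.26 for PTGER2 and between -0.39 and -0.25 for PTGER4. Same-numbered siControl and siRND3 arrays shared a column of the slide, and with that column as a replicate block the adjusted p was 0.104 for PTGER2 and 0.0951 for PTGER4.

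**Figure D3:**
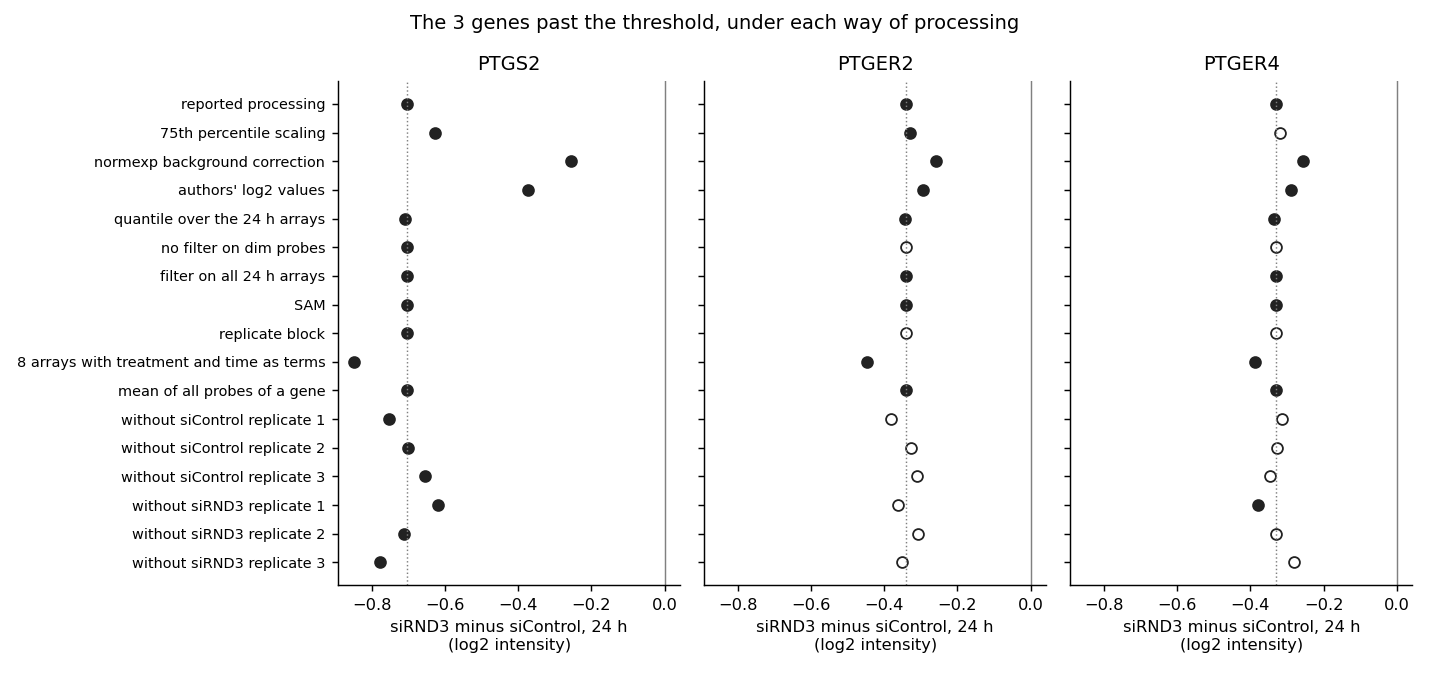
Difference at 24 h (x axis, log2 intensity, siRND3 minus siControl) of PTGS2, PTGER2 and PTGER4 under the reported processing and each of 16 alternatives (y axis). Filled points had an adjusted p under 0.05 and open points did not; the dotted line is the reported value. PTGS2 is filled throughout but shrinks to -0.26 and -0.37 where background is treated differently. PTGER2 (-0.45 to -0.26) and PTGER4 (-0.39 to -0.25) keep their sign and are open in 8 settings each.

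HPGD (probe A_24_P71904), the dehydrogenase that starts the breakdown of PGE2, was well above background on 1 array only, that of siRND3 cells at 48 h, where it read 4.24. The siControl array at 48 h read 2.67. As read, HPGD was 2.98-fold higher in siRND3 than in siControl cells at 48 h and 2.19-fold higher than in siRND3 cells at 24 h. Both ratios are against arrays on which it missed the background mark, so they are rough sizes and not lower bounds. Both also rest on that single array, with no replicate check. Its 2 spots at 48 h read 2.23 and 3.10 in siControl and 4.08 and 4.40 in siRND3 cells. At 24 h its values were 2.21, 2.91 and 2.71 in siControl and 3.59, 3.05 and 2.69 in siRND3 cells, all below the mark, and the groups overlapped. The difference at 48 h was 0.20 after normexp correction and 0.37 in the authors' log2 values, settings that by design make differences of dim probes smaller.

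The differences between siRND3 and siControl cells were next set side by side at both times. They had the same sign at 48 h as at 24 h for each of the 7 genes. The share of all genes tested that kept their sign was not computed, so this agreement only describes the 7 genes. At both times, effects of slide row and of treatment cannot be told apart. Sizes at 48 h were -1.29 for PTGS2, -0.77 for PTGER2, -0.56 for PTGER4 and -0.40 for PTGES. They were 0.29 for PTGES2, 0.32 for PLA2G4A and 0.43 for PTGES3. The median of the 7 was -0.40 at 48 h, against 0.05 over all probes tested. Whether the effect itself differed between times was tested with the single arrays at 48 h assumed to vary like those at 24 h. No gene of the 7 passed after adjustment, against 2.56% of all genes called lower and 1.68% higher. At an unadjusted p under 0.05 there were 2, namely PTGS2 (-0.59, limma adjusted p = 0.211) and PTGER2 (-0.43, limma adjusted p = 0.208).

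**Figure D4:**
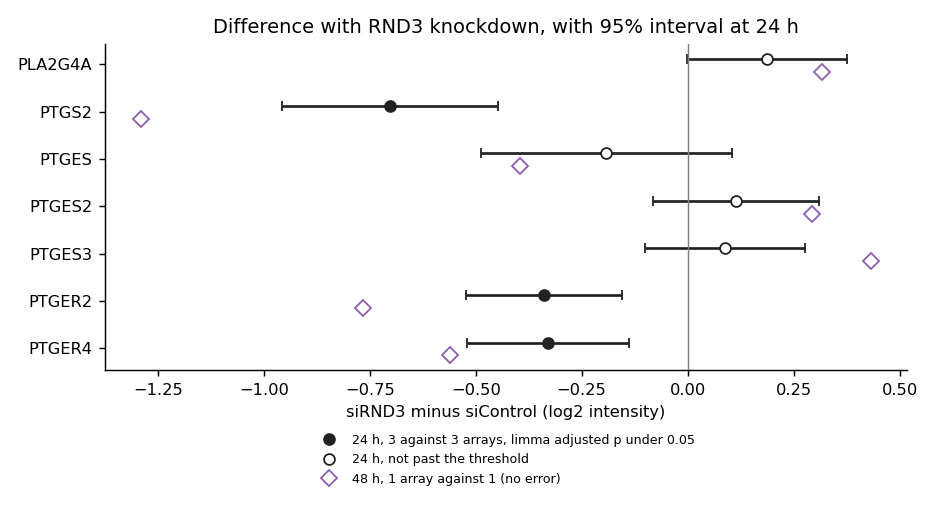
Difference between siRND3 and siControl cells (x axis, log2 intensity) for the 7 genes tested (y axis). Circles with bars are the limma estimate and its 95% interval at 24 h, filled where the adjusted p was under 0.05, and diamonds are the difference of the single arrays at 48 h. Each diamond lies on the same side of 0 as its circle, and that of PTGS2 lies at -1.29. The share of all genes whose differences had 1 sign at both times was not computed.

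From 24 h to 48 h in siRND3 cells, PTGS2 fell by 0.78 on the log2 scale (limma adjusted p = 0.0272, SE 0.15) and was the 1 gene of the 7 called lower, against 9.19% of all genes. None was called higher, against 3.61%, and none of the 7 at an unadjusted p under 0.05. The fall rests on the single siRND3 array at 48 h. It was not past the threshold after normexp correction (-0.18, limma adjusted p = 0.223), in the authors' log2 values (-0.32, adjusted p = 0.0897), or without siControl replicate 1, 2 or 3 or siRND3 replicate 2 (adjusted p between 0.0509 and 0.0590). In siControl cells no gene of the 7 was called over the same interval, against 3.99% of all genes lower and 1.19% higher. PTGES3 was the 1 gene at an unadjusted p under 0.05 there (-0.30, limma adjusted p = 0.188), and PTGS2 differed by -0.19 (95% interval -0.55 to 0.17).

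PTGS2 and PLA2G4A lie next to each other on chromosome 1, with no protein-coding gene and 1 other gene, PACERR, between them. PTGS2 was lower and PLA2G4A was not called. The probes whose course over the 8 arrays was most like that of PTGS2 were sought among 18113 probes, each set to 0 at its mean in siControl cells at 24 h. GFOD1 was closest, with a root-mean-square difference of 0.06, followed by BMERB1 (0.07), PLPP5 (0.08), CAPRIN1 (0.09) and YAP1 (0.10). Their differences at 24 h ran from -0.74 to -0.63 and at 48 h from -1.35 to -1.02.

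Other genes of arachidonate and prostanoid handling were read from a list of 38, of which 37 were on the array and 29 could be tested. At 24 h none was called lower and 2 were called higher, against the 9.26% and 7.16% of all genes given before. At an unadjusted p under 0.05 there were 2 lower (MGLL and AKR1C3) and 4 higher genes (PLA2G6, PLA2G12A, PTGR3 and TBXA2R). The median difference of the list was 0.00. By step, 1 of 10 genes of arachidonate release was called, 0 of 6 other prostanoid synthases, 0 of 5 other receptors, 1 of 4 genes of transport and inactivation, and 0 of 4 genes of the lipoxygenase branch. The remaining EP receptor genes were not called. PTGER1 stood at 4.22 ± 0.17 (SD, n = 3) in siControl and 4.13 ± 0.28 (SD, n = 3) in siRND3 cells, and the 1 tested probe of PTGER3 at 5.46 ± 0.06 and 5.51 ± 0.03 (SD, n = 3 each).

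PTGR3, a reductase that acts on oxidised prostaglandin metabolites, was called higher at 24 h through both of its probes. Its first probe (A_24_P22746) stood at 7.24, 7.14 and 7.26 in siControl and at 7.87, 7.85 and 8.02 in siRND3 cells, a difference of 0.70 (SE 0.08, limma adjusted p = 0.00407). The second probe (A_33_P3395274) read 9.49, 9.33 and 9.28 against 9.77, 9.78 and 9.67, a difference of 0.37 (limma adjusted p = 0.0391). Neither probe's groups overlapped. The first probe kept its call in all 16 alternative settings, although its difference was 0.42 after normexp correction and 0.49 in the authors' log2 values, whereas the second lost it when any 1 array was left out (adjusted p 0.0569 to 0.143). At 48 h the differences of the single arrays were 0.32 and 0.39.

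PLA2G12A, a secreted phospholipase, was called through 1 of its 2 probes. That probe (A_23_P30020) stood at 10.14, 10.25 and 10.17 in siControl and at 10.57, 10.62 and 10.58 in siRND3 cells, with no overlap and a difference of 0.41 (SE 0.07, limma adjusted p = 0.0157). The other probe (A_24_P706752) differed by 0.04 (adjusted p = 0.785), so the probes disagree. The call of the first was lost without siControl replicate 1 (0.0703) or siControl replicate 3 (adjusted p = 0.0779), and with the mean of both probes, which differed by 0.23 (limma adjusted p = 0.0943).

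**Figure D5:**
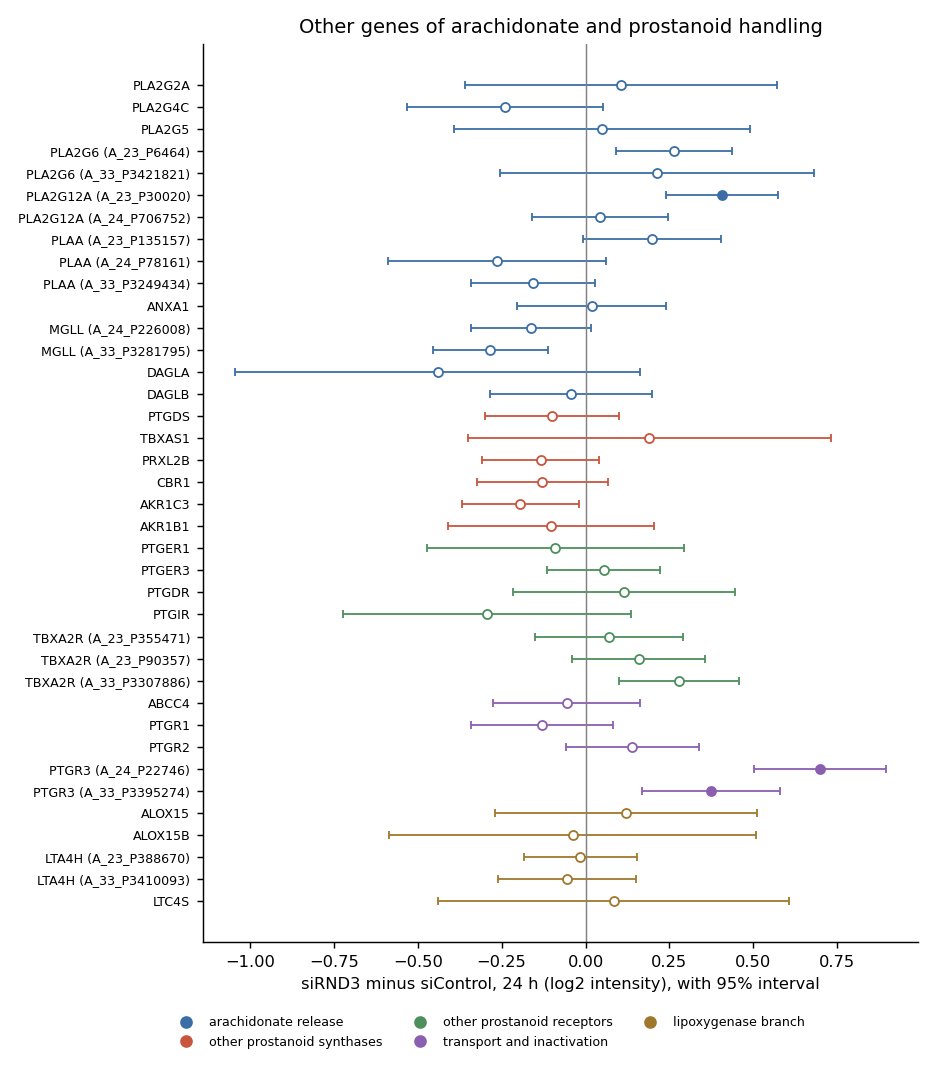
Difference at 24 h (x axis, log2 intensity, siRND3 minus siControl, with 95% interval) for each tested probe of the other arachidonate and prostanoid genes (y axis), coloured by step. Filled points had a limma adjusted p under 0.05: both probes of PTGR3 and 1 of 2 probes of PLA2G12A, all higher in siRND3 cells.

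Genes used as markers of other cell types were read beside these results, although the labels name only U87 cells. The summed intensity of the endothelial list was 392 to 422 in siControl and 356 to 377 in siRND3 cells at 24 h, and 513 and 341 on the single arrays at 48 h. Its members did not move together. PECAM1 (probe A_23_P252471, -0.99, limma adjusted p = 0.0216) and KDR (-1.11, limma adjusted p = 0.0394) were called lower, whereas the other tested PECAM1 probe was not (-0.58, adjusted p = 0.0640). CDH5 (0.31, limma adjusted p = 0.0619), TEK (0.21) and VWF (-0.06) were not called, and all siRND3 values of CDH5 lay above all siControl values. The sum of the microglia or macrophage list was 7290 to 7450 in siControl and 7204 to 8236 in siRND3 cells at 24 h, with overlap, and 6821 and 7828 at 48 h. CSF1R was called lower (-0.35, limma adjusted p = 0.0295), and PTPRC, CD68, ITGAM and CD14 were not called. For CD68 (0.20, limma adjusted p = 0.208) all siRND3 values lay above all siControl values, and the single arrays at 48 h differed by 0.76. The sum of the glioma or neural list was 221727 to 235494 in siControl and 187536 to 215698 in siRND3 cells at 24 h, and 220816 and 156620 at 48 h. These sums are of linear intensities over all probes of a list, so the brightest genes weigh most. In siControl cells at 24 h these were VIM (17.38) and CD44 (15.78) here, and CD68 (12.22) and CSF1R (11.22) in the microglia or macrophage list. In the glioma or neural list OLIG2 (-1.40, limma adjusted p = 0.00165) and CD44 (-0.58, limma adjusted p = 0.00721) were called lower. NES was called higher through 1 of 2 probes (A_23_P103672, 0.41, limma adjusted p = 0.0472), and VIM was not called (-0.08). OLIG2 (mean 5.03 in siControl and 3.64 in siRND3 cells), KDR (5.52 and 4.42) and PECAM1 probe A_23_P252471 (5.69 and 4.70) were dim at 24 h, as PTGS2 was. How the sizes of their differences depend on the treatment of background is not given. The part of these lists in the prostaglandin results was not tested.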

How the data were processed

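Processed signals were analysed for 8 Agilent 1-colour arrays (3 siControl and 3 siRND3 at 24 h, 1 of each at 48 h). The authors deposited scanner files from Feature Extraction 10.7.3.1, which hold intensity per spot on a linear scale, background-subtracted by that software, and a table of quantile-normalised log2 values. Since the files used here give a spot median and no spot mean, normexp was run on the deposited spot median intensity.

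Control spots and outlier spots (feature non-uniformity or population flags) were left out, log2 processed signals were quantile-normalised over the 8 arrays, and spots of a probe were averaged. Of 42405 probes, 25422 were named through RefSeq accessions (GRCh38.p14 gene table), giving 19483 symbols. A gene was called when any of its tested probes passed. At 24 h, 3 arrays per group were compared with limma 3.58.1 in R 4.3.3; a model with 4 groups on 8 arrays gave the contrasts with time. SAM, which the study used, was an alternative, beside scaling to the 75th percentile, normexp with an offset of 50, the authors' log2 values, other filters on dim probes, a replicate block and leaving out each array at 24 h. The number of arrays limits precision. The fits were tested on simulated data. No deposited comparison columns were used.

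The members, the other pathway genes, the marker lists and the motifs were chosen with earlier results of these arrays known. Named genes were the 10 members, RND3, the other pathway genes past the threshold at 24 h, and the 5 genes most like the member with the largest fall. The medians, unadjusted counts and marker genes quoted outside that rule (MGLL, AKR1C3, PLA2G6, TBXA2R, PTGER1, PTGER3 and those of the marker lists) were picked after their values were seen. The same processing alternatives for RND3 and the other pathway genes were added after the data were seen.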

Additional observations from a re-analysis of the deposited data

How the results depend on the processing

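The count of prostaglandin genes called lower at 24 h was 3, and 2 to 3 with 75th percentile scaling, normexp, the authors' log2 values, quantile normalisation over the 24 h arrays, a filter on all 24 h arrays, SAM, a mean of all probes or a model of 8 arrays. It was 1 with no filter on dim probes and 1 with a replicate block, and 1 to 2 when 1 array at 24 h was left out; PTGS2 was the gene left in each case with 1. With no filter, the limma adjusted p was 0.0516 for PTGER2 and 0.0622 for PTGER4, in a test over more probes; 75th percentile scaling gave PTGER4 0.0606 and the cause was not tested. The count called lower from 24 h to 48 h in siRND3 cells was 1, and 0 with normexp, 0 with the authors' log2 values, 0 with no filter (PTGS2 adjusted p = 0.0517 by limma) and 0 to 1 when 1 array was left out. The count called higher there was 0, and 1 with no filter, through a PTGS1 probe that missed the background mark on each array. At 48 h, PTGER2 differed by -0.59 with normexp and -0.68 in the authors' values, PTGER4 by -0.39 and -0.43, and PLA2G4A by 0.24 with normexp.

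Deviations from the group means at 24 h had correlations of 0.00, -0.01 and 0.13 between same-numbered siControl and siRND3 arrays. Between differently numbered arrays they were -0.13 to 0.11, so with 3 arrays per group they cannot decide whether the numbers were pairs. The reported fit used no block because the methods describe none and the labels do not say what a number shares. The replicate block changed the calls of PTGER2, PTGER4, 1 probe of PTGR3 (limma adjusted p = 0.0809) and PLA2G12A (0.0606). It changed no other call at 24 h of the 7 genes, RND3 or the first PTGR3 probe. It was not run for the comparisons with time or for the marker genes. Of the other pathway genes, 1 was lower with normexp, the authors' values, the filter on all 24 h arrays and the 8-array model, and 4 were higher with normexp and with the authors' values. No difference of the 7 genes at 24 h changed sign under any of the 16 alternatives. The differences of PTGS2, HPGD and the first PTGR3 probe changed by over 1.5 times with normexp, as did that of PLA2G4A at 24 h (0.12 with normexp).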
